A study of Mus musculus with 16 samples.

Results

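Apol7c, Cacna1e and Clec2i are the 3 genes whose RNA was called lower in TRIM33-deficient libraries of all 3 splenic dendritic cell (DC) subsets, plasmacytoid DCs (pDCs) and the conventional subsets cDC1 and cDC2. They were 3 of 10619 genes tested in both deposited tables, and were selected on the cKO minus WT values themselves, so those values are given below as a description. The libraries came from spleens of C57BL/6 mice of 6 to 8 weeks. The WT animals were Trim33 fl/fl mice, and the cKO animals were Trim33 fl/fl Itgax-Cre mice, labelled Trim33-/-, so both genotypes carried the floxed alleles and the Cre transgene was carried by the cKO animals alone. Cre was driven by the promoter of Itgax, the gene of CD11c, which is not confined to DCs. All cells were sorted as CD11c+, pDCs with SiglecH+ and both cDC subsets as SiglecH- with MHC II+; cDC1s were further CD24+ and CD172a-, and cDC2s the opposite for both. Each genotype gave 3 libraries for pDCs, 2 for cDC1s and 3 for cDC2s, which were mRNA libraries made after extraction of total RNA. Each library pooled the cells of several mice, with more mice in a cKO than in a WT pool, so pool size cannot be told apart from genotype. Values are in TPM, an abundance scaled to transcript length and to a fixed total, and the pDC and cDC tables were normalised separately, so no test was made between them.

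Trim33 encodes a nuclear E3 ubiquitin ligase and chromatin cofactor of the transforming growth factor beta pathway. Apol7c encodes an apolipoprotein L, a family of pore-forming proteins; in cDCs APOL7C has been described at the phagosome, where it acts in the cross-presentation of ingested antigen to CD8+ T cells. Cacna1e encodes the alpha1E subunit, the pore of the R-type voltage-gated calcium channel CaV2.3, which is best known in neurons and endocrine cells. Clec2i encodes the C-type lectin-related protein Clr-g, a surface ligand of the NKRP1 receptors of natural killer (NK) cells. pDCs are the interferon-producing DCs, cDC1s prime CD8+ T cells by cross-presentation, and cDC2s mainly prime CD4+ T cells. When cDCs mature they take up a shared programme with Ccr7, Fscn1 and costimulatory molecules.

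Trim33, the targeted gene, followed the labels in direction in each subset and was called lower in both cDC subsets but not in pDCs. Trim33 ranged from 20.6 to 23.8 TPM in WT and from 11.7 to 16.5 TPM in cKO pDCs, and from 15.5 to 20.6 TPM in WT and from 7.13 to 8.07 TPM in cKO cDCs, so that the genotypes did not overlap in any subset. Its log2 fold changes by limma were -0.68 in pDCs (adjusted p 0.0301), -1.02 in cDC1s (adjusted p 3.49e-04) and -1.17 in cDC2s (adjusted p 1.26e-04). In pDCs the adjusted p by limma ran from 0.00361 with the replicate numbers as a block to 0.122 without WT pDC library 3. Summed TPM of 8 pDC markers was at least 17070 in each pDC library and at most 257.6 in each cDC library. The 8 cDC1 markers summed to at least 3461 TPM in the cDC1 and at most 285.1 TPM in the cDC2 libraries, and the 9 cDC2 markers to at least 1479 TPM in the cDC2 and at most 286.7 TPM in the cDC1 libraries. These cDC lists did not set pDCs apart: in the pDC table the cDC1 markers summed to 3704 to 4258 TPM and the cDC2 markers to 1878 to 2346 TPM. Estimated depth was 17.5 to 20.2 M reads, at which 3 reads on a transcript of 2000 bases stand for 0.138 to 0.185 TPM, counting error only. In bulk samples, fewer cells of a type and less RNA per cell cannot be told apart.

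The fit was limma on log2(TPM + 1). Calls required a Benjamini-Hochberg adjusted p no larger than 0.01, over all genes tested, together with a log2 fold change of 0.5 or more in size. In pDCs 27 of 11299 genes were called lower, a share of 0.239%, and 1.05% were called in either direction. In cDC1s 749 of 11411 genes were called lower, a share of 6.56%, with 22.4% called in either direction. That balance depended on the scaling, with 1806 higher and 749 lower on the TPM scale, 1067 and 1070 after median-of-ratios scaling and 1060 and 962 after quantile normalization. In cDC2s 406 genes were called lower, a share of 3.56%, with 7.15% in either direction (410 higher and 406 lower, or 580 and 379 after median-of-ratios scaling). With the replicate numbers as a block, 335 pDC genes were called in place of 119. Of the genes tested in both tables, 38 (0.358%) had log2 fold changes of at most -0.5 in each subset. The shares of genes called in each subset are the ones to set beside the counts of list genes and neighbours below.

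The plot of TPM by library gives each library's value for the 3 genes. In each of the 9 comparisons of a gene within a subset the highest cKO library was below the lowest WT library. The genes were chosen on these differences, so this separation is a description. How many of all genes separate likewise was not computed. That limit holds wherever groups without overlap are given in this text. Within the cDC table, WT levels were higher in cDC1s for Apol7c and Cacna1e and in cDC2s for Clec2i. The log2 fold change was lowest in cDC1s for Apol7c and Clec2i and in cDC2s for Cacna1e.

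**Figure D1:**
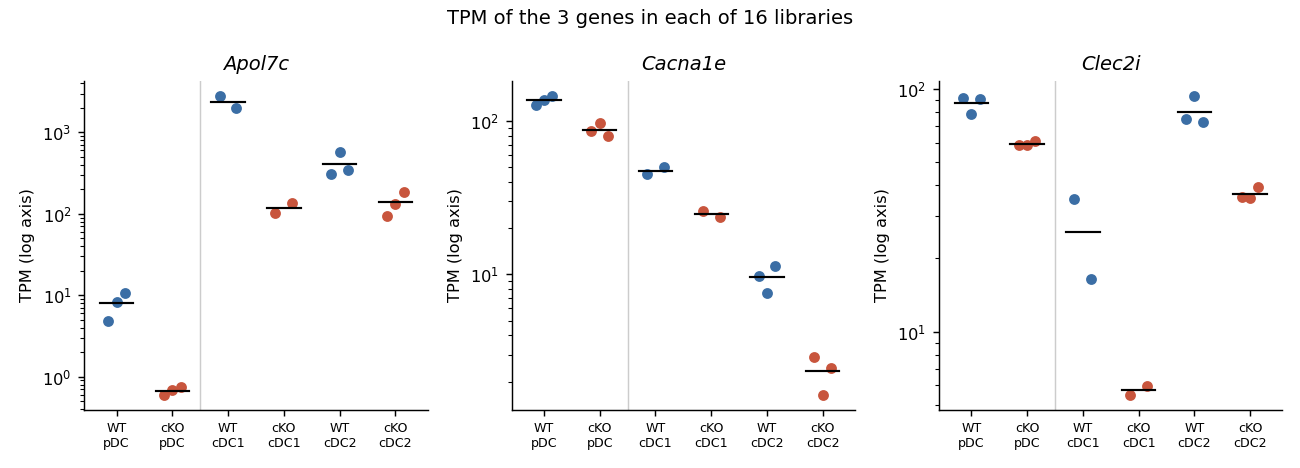
TPM (log axis) of Apol7c, Cacna1e and Clec2i in each of 16 libraries; points are libraries, blue WT and red cKO, bars are group means, and the grey line divides the separately normalised pDC and cDC tables. The cKO points lie below the WT points in each subset, Apol7c is highest in WT cDC1s (1969 to 2798 TPM) and Cacna1e is listed highest in WT pDCs (128 to 146 TPM).

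Apol7c (gene ID 108956, chr15:77524852-77533335 on GRCm38.p6, minus strand) was among the most abundant RNAs of WT cDC1s. In cDC1s, WT libraries held 2798 and 1969 TPM, whereas cKO libraries held 102 and 137 TPM. By group mean it ranked 65 of 17721 genes in WT and 1321 in cKO cDC1s, and the cKO mean was 5.0% of the WT mean. The log2 fold change was -4.30 (SE 0.35), the third-lowest of the 11411 genes tested.

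In WT cDC2s Apol7c stood at 306, 574 and 344 TPM, and in cKO cDC2s at 94.9, 132 and 187 TPM. The groups did not overlap, but the lowest WT library was 1.64 times the highest cKO library, against 14.4 times in cDC1s. The log2 fold change was -1.56 (SE 0.28). WT cDC2 library 2, the highest for Apol7c, also had the highest summed TPM of 6 erythroid markers, 10740 against 384 to 3189 in the other cDC libraries; without it the change was -1.28 (adjusted p 0.0148 by limma), and the part of the erythroid RNA was not tested.

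In pDCs Apol7c was low. The WT libraries held 4.82, 8.33 and 10.8 TPM and the cKO libraries 0.60, 0.69 and 0.74 TPM, which corresponds to about 83 to 190 and 11 to 13 reads. The groups did not overlap, and the log2 fold change was -2.36 (SE 0.25), the second-lowest of 11299 genes. On this low level the value of Apol7c depends on how its reads are divided among paralogs.

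Apol7c has close copies on the same chromosome, and short reads from them are alike. The coding sequence of Apol7c was 90.8% identical to that of Apol7a, 88.8% to that of Apol7b and 88.4% to that of Apol7e over 1107 aligned bases (GENCODE transcripts). Of the 2011 windows of 50 bases in the Apol7c transcript, the length of a read, 26.2% occurred exactly in a transcript of another gene and 60.8% occurred there with up to 2 mismatches. For Apol7b and Apol7e the exact shares were 75.6% and 76.0%. The first 60 bases of the last coding exon (exon 5 of 5) show the likeness, and capitals mark bases that differ from Apol7c, and the sequences are on the coding strand at chr15:77526440-77526499, chr15:77423989-77424048 and chr15:77717449-77717508 of GRCm38.
Apol7c: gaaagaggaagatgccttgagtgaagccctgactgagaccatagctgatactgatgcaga
Apol7b: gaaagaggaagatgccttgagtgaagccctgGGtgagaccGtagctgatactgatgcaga
Apol7e: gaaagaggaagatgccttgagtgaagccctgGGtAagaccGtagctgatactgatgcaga
In this stretch Apol7b differed from Apol7c at 3 and Apol7e at 4 of 60 bases.

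In the cKO pDC libraries the paralogs were listed at almost the same level. Apol7b and Apol7e both stood at 0.57, 0.72 and 0.73 TPM beside the 0.60, 0.69 and 0.74 TPM of Apol7c, whose share of the summed TPM of Apol7a, Apol7b, Apol7c and Apol7e was 32.4 to 34.5%. In the WT pDC libraries that share was 77.6 to 84.9%. With the paralogs summed into 1 gene, the pDC log2 fold change was -1.76 in place of -2.36. How the estimation divided these reads was not tested. In cDCs Apol7c held 93.4 to 93.7% of the sum in WT and 93.5 to 93.6% in cKO cDC1s, and 95.5 to 96.3% in the cDC2 groups, and summing moved its log2 fold changes by less than 0.01.

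The rule did not compare levels between subsets, although the WT libraries entered its contrasts. In WT mice Apol7c was lower in cDC2s than in cDC1s by a log2 difference of -2.58 (SE 0.32, adjusted p 8.86e-05 by limma). In that contrast 31.7% of genes were called. In cKO mice the difference was 0.17 (SE 0.32), with a 95% interval from -0.54 to 0.88, in a contrast where 28.3% of genes were called. The genotype difference in cDC1s minus that in cDC2s was -2.75 (SE 0.45), and lay between -3.02 and -2.49 with any 1 library left out. It is made of the values that chose the gene and is given as a description, in a contrast where 2.56% of genes were called.

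Of the 12 other Apol genes listed, 11 were in the cDC table and 4 reached a mean of 1 TPM there. All 4, Apol7a, Apol7b, Apol7e and Apol10b, fell in cDC1s, with a median log2 fold change of -3.52 against 0.17 over all genes. Apol7a, Apol7b and Apol7e share read sequences with Apol7c and so need not be separate values. Apol7b and Apol10b also fell in cDC2s, where the median of the 4 was -1.35 against -0.03 over all genes. In pDCs none of the 9 listed reached the level for a test.

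Apol7b was at 124 and 93.5 TPM in WT and 4.64 and 5.89 TPM in cKO cDC1s (log2 fold change -4.12, SE 0.28, adjusted p 1.40e-05). In cDC2s it was at 9.33, 15.9 and 12.2 TPM in WT and 2.60, 3.99 and 5.29 TPM in cKO libraries (-1.45, SE 0.23, adjusted p 0.00266). It stood at 2.74 to 4.75% of the Apol7c TPM in each of the 10 cDC libraries. Whether Apol7b has RNA of its own or is listed through reads of Apol7c was not tested.

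Apol10b, which is not among the genes that share 50-base windows with Apol7c, gives a value free of that limit. Its TPM was 49.3 and 23.2 in WT and 2.43 and 3.50 in cKO cDC1s (-3.15, SE 0.40, adjusted p 3.51e-04). In cDC2s it was 6.74, 10.9 and 6.69 in WT and 0.76, 1.46 and 2.78 in cKO libraries (-1.81, SE 0.33, adjusted p 0.00512). The groups did not overlap in either cDC subset. Apol7a fell in cDC1s from a mean of 45.1 to 2.12 TPM (-3.89) and in cDC2s was at 4.15 ± 2.26 TPM in WT and 1.05 ± 0.354 TPM in cKO (SD, n = 3 each, adjusted p 0.0120 by limma). Apol7e fell in cDC1s from 8.79 to 0.87 TPM (-2.35) and had an adjusted p of 0.0487 in cDC2s.

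**Figure D2:**
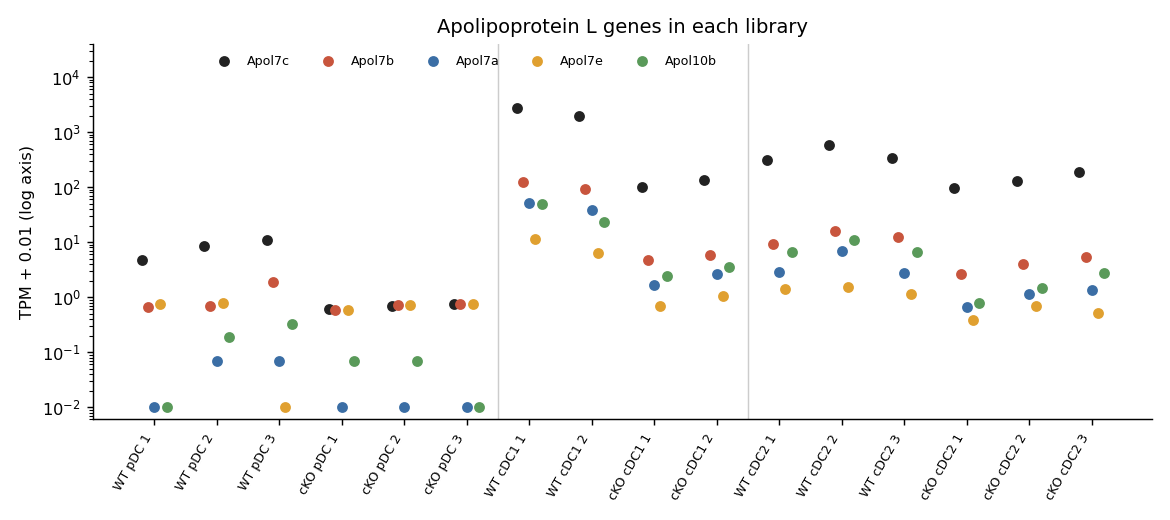
TPM + 0.01 (log axis) of 5 apolipoprotein L genes in each library, with 1 column of points for each library and grey lines between the subsets. In the cDC libraries Apol7c lies above the other 4 genes, and in the cKO pDC libraries Apol7c, Apol7b and Apol7e coincide between 0.57 and 0.74 TPM.

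Upstream of the genes Apol7c was like Apol7b and Apol7e but not like Apol7a. Below are 200 bases upstream of the start of Apol7c and of Apol7b, which moved together in cDCs, and of Clec2i, ending 50 bases before the start given for each in the RefSeq promoter set, which for Apol7c lies slightly inside the outer end of the gene (GRCm38.p6, chr15:77533366-77533565 minus strand, chr15:77447511-77447710 minus strand and chr6:128887337-128887536 plus strand). Capitals mark motifs found on either strand.
Apol7c: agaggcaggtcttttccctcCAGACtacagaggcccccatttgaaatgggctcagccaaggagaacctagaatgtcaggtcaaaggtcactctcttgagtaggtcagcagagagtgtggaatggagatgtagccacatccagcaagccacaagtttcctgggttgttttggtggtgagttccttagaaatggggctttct
Apol7b: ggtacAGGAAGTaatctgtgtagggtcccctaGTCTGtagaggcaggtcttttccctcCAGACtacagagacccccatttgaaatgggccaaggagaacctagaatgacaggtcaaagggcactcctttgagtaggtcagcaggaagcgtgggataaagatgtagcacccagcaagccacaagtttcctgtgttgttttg
Clec2i: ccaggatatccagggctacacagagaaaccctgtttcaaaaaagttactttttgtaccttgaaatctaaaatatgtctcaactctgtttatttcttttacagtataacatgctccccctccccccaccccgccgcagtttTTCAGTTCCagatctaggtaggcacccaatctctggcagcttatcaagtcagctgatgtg
The Apol7c and Apol7b windows were 92.0% identical over 162 aligned bases, and those of Apol7c and Apol7e 92.8% over 167. The Apol7c and Apol7a windows were 62.9% identical, within the range of 56.9 to 67.3% over the pairs that include Cacna1e or Clec2i. The Cacna1e window (chr1:154725971-154726170, minus strand) lies inside the gene body and overlaps 1 annotated exon. It is not printed, and none of the motifs below occurred in it. The motifs searched, both strands, were CAGAC (SMAD element, in 35.7% of 27025 windows of all genes), AGGAAGT (PU.1, 5.69%), GGAANNGAA (composite of ETS and IRF factors, 5.71%), GAAANNGAA (interferon response, 5.83%), TGANTCA (AP-1, 5.74%), GGGANTTTC (NF-kB, 0.799%) and TATAAA (9.48%). CAGAC occurred once in the Apol7c and 2 times in the Apol7b window, AGGAAGT once in Apol7b, and GGAANNGAA once in Clec2i. A match describes letters and not a site, and no motif was common to Apol7c and Clec2i.

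Cacna1e (gene ID 12290, chr1:154390806-154884785, minus strand) was listed at its highest values in pDCs, in a table normalised apart from that of the cDCs. The WT pDC libraries held 128, 137 and 146 TPM and the cKO pDC libraries 86.3, 97.3 and 80.0 TPM. The groups did not overlap, and the cKO mean was 64.3% of the WT mean (log2 fold change -0.63, SE 0.09). Because the transcript is long (14921 bases), these values rest on about 10000 to 18000 reads a library. None of its 50-base windows occurred in another gene exactly, and 0.0672% did with up to 2 mismatches.

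In cDC1s Cacna1e was at 45.3 and 49.9 TPM in WT and 26.0 and 23.5 TPM in cKO libraries (log2 fold change -0.92, SE 0.21). In cDC2s it was at 9.70, 7.60 and 11.4 TPM in WT and 2.90, 1.64 and 2.47 TPM in cKO libraries (log2 fold change -1.66, SE 0.17). Neither subset's groups overlapped. The cKO mean was 52.0% of the WT mean in cDC1s and 24.5% in cDC2s, so that the lowest WT level went with the largest proportional difference.

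Between the cDC subsets Cacna1e was lower in cDC2s, by -2.22 (SE 0.19, adjusted p 5.47e-06 by limma) in WT and by -2.96 (SE 0.19) in cKO libraries. The genotype difference in cDC1s minus that in cDC2s was 0.75 (SE 0.27, unadjusted 95% interval 0.16 to 1.34), again a description. It was not called (adjusted p 0.0943 by limma). The median of all genes in this contrast was 0.22.

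The other pore-forming subunits were mostly low. Of 9 alpha1 genes, Cacna1d and Cacna1s reached a mean of 1 TPM in pDCs, and Cacna1s alone did in cDCs. Cacna1d, an L-type channel pore, was at 25.8, 26.2 and 30.7 TPM in WT and 22.7, 23.0 and 25.2 TPM in cKO pDCs, and was not called (log2 fold change -0.21, SE 0.09, adjusted p 0.239). Cacna1s, the L-type pore of skeletal muscle, fell in both cDC subsets.

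The Cacna1s values were 10.5 and 8.65 TPM in WT and 4.54 and 4.86 TPM in cKO cDC1s (log2 fold change -0.88, SE 0.19, adjusted p 0.00472). In cDC2s they were 4.71, 7.27 and 5.69 TPM in WT and 1.71, 2.30 and 1.88 TPM in cKO libraries (-1.21, SE 0.15, adjusted p 9.05e-04). On the TPM scale Cacna1s was below Cacna1e in each cDC group mean, and its own groups did not overlap in either subset. In pDCs it was at 0.61 to 1.63 TPM with overlapping groups.

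Channel pores work with auxiliary beta, alpha2delta and gamma subunits. Of 16 such genes 6 were tested in pDCs and none was called there (median log2 fold change 0.20). Of 4 tested in cDCs, Cacnb1 and Cacnb3 fell in cDC1s (median -1.26) and Cacng8 in cDC2s (median -0.67). Cacnb3, a beta subunit that the list of mature DC genes also holds, was at 324 and 141 TPM in WT and 12.8 and 24.1 TPM in cKO cDC1s (-3.53, SE 0.52, adjusted p 7.02e-04).

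In cDC2s Cacnb3 was at 48.3, 138 and 89.0 TPM in WT and 22.2, 29.6 and 41.8 TPM in cKO libraries, and did not pass the test (-1.45, SE 0.42, adjusted p 0.0384). Cacnb1 went from a mean of 8.48 to 1.69 TPM in cDC1s (-1.77, SE 0.30, adjusted p 0.00144). Cacng8 went from 44.1 ± 8.60 to 20.04 ± 1.60 TPM (SD, n = 3 each) in cDC2s (-1.08, adjusted p 0.00172 by limma). In pDCs Cacng8 had the opposite sign, with WT libraries at 0.45 to 0.74 and cKO libraries at 1.69 to 2.78 TPM (1.07, SE 0.18, adjusted p 0.0209), and was not called.

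Calcium release and store-operated entry, the routes that immune cells chiefly use, were a further list of 15 genes, 13 of them tested in each subset. None was called in pDCs. In cDC1s Atp2a2, the SERCA2 pump, rose from a mean of 79.3 to 131 TPM (0.71, SE 0.15, adjusted p 0.00488), and in cDC2s the ryanodine receptor gene Ryr3 fell from 22.2 to 3.23 TPM (-2.43, SE 0.17, adjusted p 3.02e-05). The list's median log2 fold changes were 0.01 in pDCs, 0.20 in cDC1s and -0.02 in cDC2s, beside -0.05, 0.17 and -0.03 over all genes.

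Clec2i (gene ID 93675, chr6:128887587-128898168, plus strand) was at similar levels in WT pDCs and WT cDC2s of the separately normalised tables. The WT pDC libraries held 91.2, 78.7 and 91.1 TPM and the cKO pDC libraries 58.5, 58.8 and 60.8 TPM. The groups did not overlap, and the cKO mean was 68.2% of the WT mean (log2 fold change -0.54, SE 0.07). This was the smallest of the 9 differences and the closest to the limit of 0.5.

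In cDC2s Clec2i was at 75.0, 93.3 and 72.8 TPM in WT and 35.9, 35.6 and 39.5 TPM in cKO libraries (log2 fold change -1.09, SE 0.22). In cDC1s it was at 35.04 and 16.4 TPM in WT and 5.49 and 5.98 TPM in cKO libraries (-1.90, SE 0.27). Neither subset's groups overlapped, but the 2 WT cDC1 libraries had the widest spread relative to the mean of the 6 groups; without WT library 1 the cDC1 change was -1.37 and without WT library 2 it was -2.42.

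Clec2i was higher in cDC2s than in cDC1s, by 1.69 (SE 0.25, adjusted p 2.72e-04 by limma) in WT and by 2.50 (SE 0.25) in cKO libraries. This order is the reverse of that of Apol7c and Cacna1e in WT cDCs. The genotype difference in cDC1s minus that in cDC2s was -0.80 (SE 0.35, unadjusted 95% interval -1.58 to -0.03) and was not called (adjusted p 0.150 by limma). It was -0.28 without WT cDC1 library 1 and -1.33 without WT cDC1 library 2.

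Clec2i lies in the NK gene complex, where Clec2 ligand genes alternate with the Klrb1 genes of their receptors. Of its 50-base windows 7.88% occurred exactly in Clec2h, Clec2d or Clec2g, and 30.7% occurred in another gene with up to 2 mismatches. Of the 8 other Clec2 genes, 5 were tested in pDCs and 3 in cDCs. Clec2l, a member encoded outside the complex, rose in pDCs, from 1.97, 2.89 and 2.14 to 6.32, 6.40 and 5.95 TPM (1.13, SE 0.14, adjusted p 0.00659), and Clec2d fell in cDC1s.

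Clec2d encodes Clr-b, the widely expressed ligand of the inhibitory receptor NKRP1B. It was at 97.9 and 65.8 TPM in WT and 32.5 and 35.01 TPM in cKO cDC1s (-1.23, SE 0.24, adjusted p 0.00316). In cDC2s its WT libraries at 78.6 to 132 TPM overlapped the cKO libraries at 75.6 to 90.3 TPM, and in pDCs its values of 68.6 to 165 and 70.6 to 170 TPM followed the replicate number and not the genotype (log2 fold changes -0.21 and 0.07, adjusted p 0.489 and 0.941). Clec2f, Clec2g and Clec2h were not called in any subset in which they were tested, and their group means were at most 4.83 TPM.

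Of 5 NKRP1 receptor genes, Klrb1b and Klrb1f were tested in cDCs and both rose in cDC1s. Klrb1f encodes NKRP1F, the receptor that binds Clr-g, and was at 1.32 and 2.19 TPM in WT and 5.06 and 4.42 TPM in cKO cDC1s (1.07, SE 0.17, adjusted p 9.76e-04). In cDC2s it was far higher and not called, at 33.0, 39.4 and 37.5 TPM in WT and 31.2, 34.3 and 28.2 TPM in cKO libraries (-0.22, adjusted p 0.280). Klrb1b was at 2.35 and 4.14 TPM in WT and 10.1 and 10.1 TPM in cKO cDC1s (1.42, SE 0.27, adjusted p 0.00265). Summed TPM of 7 NK cell markers was 2.06 to 3.67 in the cDC1 libraries, with overlapping groups.

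**Figure D3:**
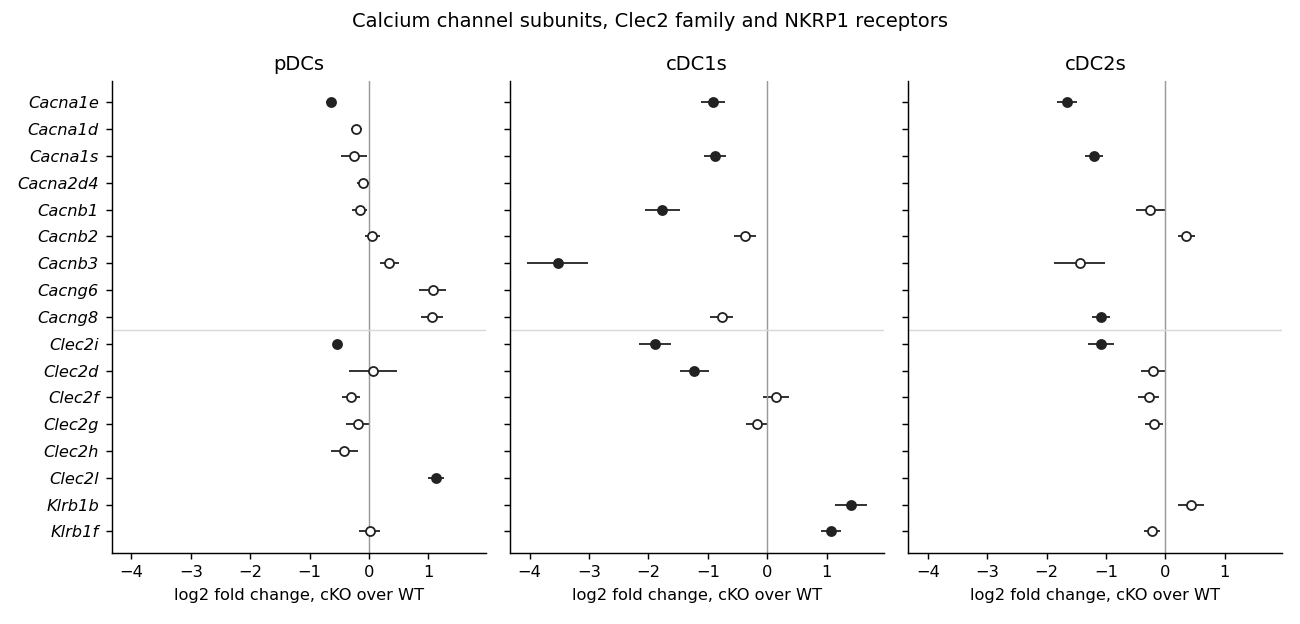
Log2 fold change (cKO over WT) with SE of calcium channel subunits (upper part), Clec2 genes and NKRP1 receptors (lower part) in pDCs, cDC1s and cDC2s; filled points passed both thresholds, and genes under 1 TPM on average in a table have no point. Cacna1e and Clec2i are filled on the left of 0 in each panel because they were chosen that way, Cacna1s is filled in both cDC panels, and Klrb1b and Klrb1f are filled on the right of 0 in cDC1s.

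Because APOL7C acts in cross-presentation and is induced on maturation, the 3 genes were set beside lists for both. These lists were chosen with earlier results of these data known, so the comparison is a description. Of 29 mature DC genes, 28 were tested in cDCs. In cDC1s 22 of them fell and none rose, with a median log2 fold change of -1.60 against 0.17 over all genes. In cDC2s 5 fell (Ccr7, Cd86, Cd83, Cd274 and Stat4) with a median of -0.46 against -0.03, and in pDCs none of 22 was called and the median was -0.08 against -0.05.

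Ccr7, the chemokine receptor that guides DCs to lymph nodes, went from a mean of 556 to 26.1 TPM in cDC1s (-4.37, SE 0.41, adjusted p 8.25e-05) and from 269 to 69.4 TPM in cDC2s (-1.91, SE 0.34, adjusted p 0.00440). In pDCs it was at 9.11 and 9.95 TPM. Apol7c had a log2 fold change lower than that of 27 of the 28 list genes in each cDC subset, after Ccr7. Cacna1e was in another order, lower than 7 of them in cDC1s and 27 in cDC2s, and Clec2i lower than 16 and 23.

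Summed over the list, mature DC genes had 6239 and 4165 TPM in WT and 1349 and 1602 TPM in cKO cDC1s, 4931 to 6357 TPM in WT and 3253 to 3870 TPM in cKO cDC2s, and 1186 to 1353 TPM in WT and 1115 to 1226 TPM in cKO pDCs. The groups did not overlap in cDCs. In pDCs they overlapped. Between pDC libraries of the same replicate number, the cKO sum was below the WT sum in each pair (1353 and 1226, 1186 and 1115, 1269 and 1191 TPM). Whether the numbers mark a pairing is not known. These pairs were not tested, and none of the 22 list genes tested in pDCs was called. WT cDC1 library 1 was higher than WT library 2 in this sum, in Apol7c and in Clec2i, and lower in Cacna1e. How much of the cDC values of the 3 genes goes with the number of mature cells in the sort was not tested.

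**Figure D4:**
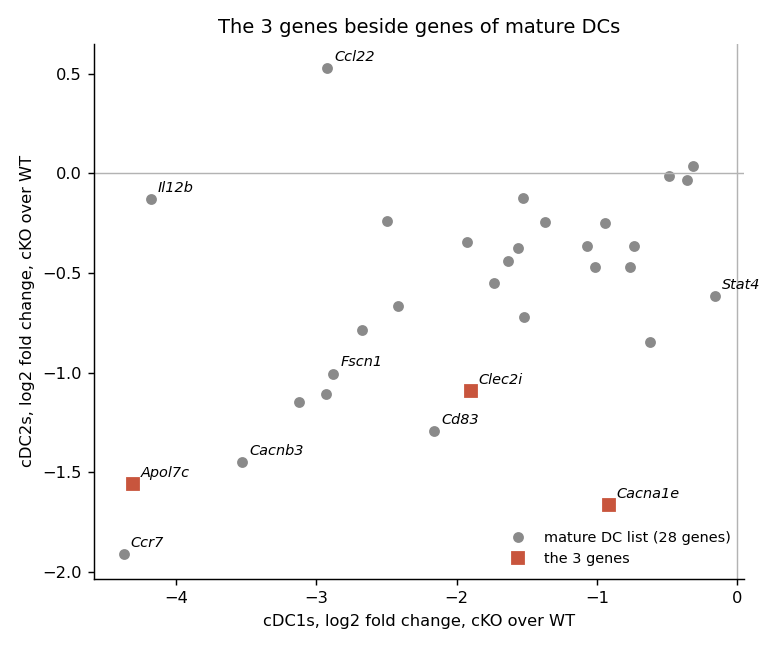
Log2 fold change (cKO over WT) in cDC1s (x axis) and cDC2s (y axis) of 28 mature DC genes (grey) and of Apol7c, Cacna1e and Clec2i (red squares). All 28 grey points lie left of 0 in cDC1s, Apol7c lies near Ccr7 at the lower left, and Cacna1e lies apart at -0.92 and -1.66.

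Of 16 cross-presentation genes, Clec9a and B2m fell and Cybb rose in cDC1s, and none was called in cDC2s or pDCs. These counts do not exceed the shares over all genes, which were 22.4% in cDC1s, 7.15% in cDC2s and 1.05% in pDCs. Clec9a, the receptor of cDC1s for dead cells, went from a mean of 541 to 214 TPM (-1.33, SE 0.32, adjusted p 0.00889). Cybb, the phagosomal NADPH oxidase subunit, went from 8.39 to 23.5 TPM (1.44, SE 0.24, adjusted p 0.00144). The median of the list was -0.04 in cDC1s and -0.03 in cDC2s.

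Likeness was measured as Pearson's r of log2(TPM + 1) over the 10 cDC libraries, which share the 4 groups, and is a description. The genes most like Apol7c were Apol7b (r = 0.986), Tm4sf5 (0.983), Gp2 (0.978), 2510009E07Rik (0.976) and Hdac11 (0.975). Each of them was highest in WT cDC1s, as Gp2 with mean TPM of 42.1 in WT cDC1s, 0.96 in cKO cDC1s, 5.27 in WT cDC2s and 1.60 in cKO cDC2s. Tm4sf5 went the other way in pDCs, where it was higher in cKO libraries, at 28.5 against 6.44 TPM (log2 fold change 2.06), and r over the 6 pDC libraries was -0.931.

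The genes most like Cacna1e were Adam19 (r = 0.995), Chpf (0.989), Gpr4 (0.987), Parp8 (0.986) and Mast4 (0.985). Adam19, a membrane metalloprotease, had mean TPM of 356, 200, 110 and 45.3 in WT cDC1s, cKO cDC1s, WT cDC2s and cKO cDC2s. Over the 6 pDC libraries r was 0.561 for Adam19 and between -0.553 and 0.283 for the others. None of the 5 was called in pDCs.

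The genes most like Clec2i were Ric1 (r = 0.989), Mical3 (0.988), H2-M2 (0.987), Crebl2 (0.986) and Tmem35b (0.985). H2-M2, a nonclassical MHC class I gene, had mean TPM of 35.1 and 3.59 in WT and cKO cDC1s and of 121 and 42.4 in WT and cKO cDC2s. Over the 6 pDC libraries Crebl2 also went with Clec2i (r = 0.922), and Mical3 did not (r = -0.883).

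Genes within 500 kb were few enough to list. Near Apol7c 36 genes are annotated and 9 were tested in cDCs, of which Apol7a, Apol7b, Apol10b and Apol7e fell and Myh9, Foxred2 and Eif3d rose in cDC1s. The genes that rose lie 227 to 426 kb away. Near Cacna1e 34 genes are annotated and 5 were tested, and of these Ier5, an immediate-early gene 212 kb away, fell in cDC1s (-1.06, SE 0.10, adjusted p 8.89e-05) and in cDC2s (-0.84, SE 0.08, adjusted p 2.33e-04). Near Clec2i 43 genes are annotated and 11 were tested in cDCs, of which Clec2d fell and Klrb1b, Klrb1f and Fkbp4 rose in cDC1s and none was called in cDC2s. In pDCs no gene near any of the 3 was called, of 5, 5 and 12 tested. Over all genes 22.4% were called in cDC1s, 7.15% in cDC2s and 1.05% in pDCs. The cDC1 count near Cacna1e and the pDC counts do not exceed those shares.

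**Figure D5:**
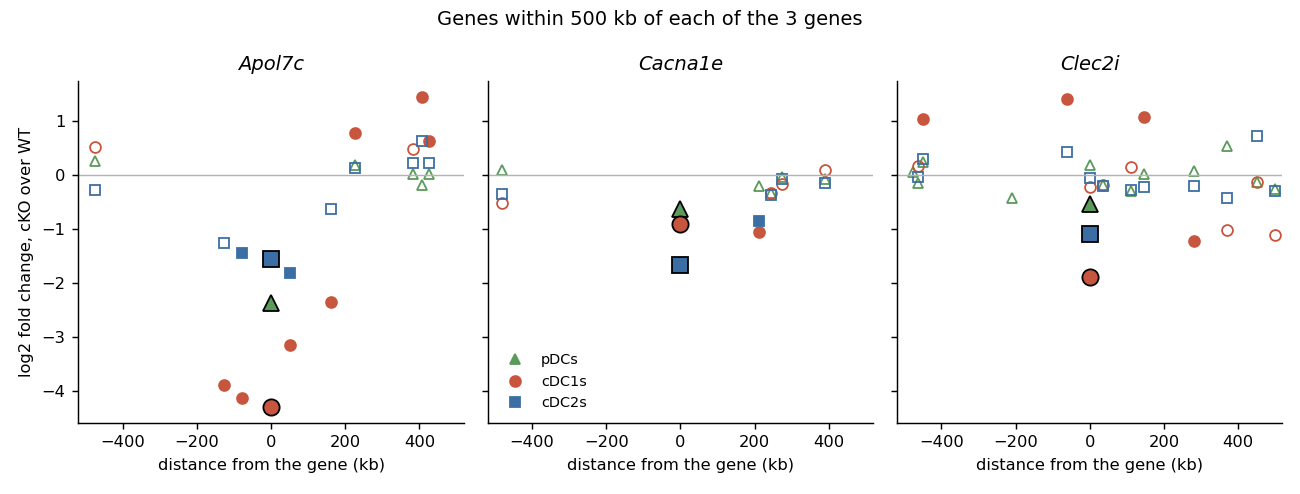
Log2 fold change (cKO over WT) of genes within 500 kb of Apol7c, Cacna1e and Clec2i by distance in kb from the gene, in pDCs (triangles), cDC1s (circles) and cDC2s (squares); filled symbols passed both thresholds, and the large symbols at 0 are the 3 genes. The 4 filled circles below -2 near Apol7c are Apol genes, and near Cacna1e and Clec2i no neighbour is filled in pDCs.

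Values just inside and just outside the rule were close. The largest adjusted p over the 3 subsets was 0.00521 for Apol7c, 0.00849 for Clec2i and 0.00857 for Cacna1e. The next genes were BC051142 (0.0132), a gene listed by ID 115489986 without a symbol (0.0162), Tmem231 (0.0174), Nfe2l3 (0.0184) and H2-Eb2 (0.0289). Nfe2l3, which encodes the transcription factor NRF3, had log2 fold changes of -1.13 in pDCs, -1.75 in cDC1s and -1.06 in cDC2s, and so a lower value than Clec2i in pDCs.

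The sign of each value held in the alternatives and the call often did not. Under 150 alternative fits of the 9 differences, 150 were below 0 and 104 passed both thresholds. The genes were chosen for values below 0 and their groups did not overlap, so leaving out a library could not change the sign. Fits without a library of the other cDC subset left the value as it was. In pDCs, leaving out 1 library kept the call of Apol7c only without WT library 1, of Cacna1e only without cKO library 2 and of Clec2i only without WT library 2, with adjusted p of up to 0.0153, 0.0489 and 0.0507. In cDC1s the call of Cacna1e was lost without any 1 of the 4 cDC1 libraries (0.0251 to 0.0462) or without cKO cDC2 library 3 (0.0111). In cDC2s that of Apol7c was lost without WT cDC2 library 2 (0.0148), cKO cDC2 library 1 (0.0183) or cKO cDC2 library 2 (0.0188), and that of Clec2i without any cDC2 or cKO cDC1 library (0.0114 to 0.0293). Relative to the median of all genes, which was 0.17 in cDC1s on the TPM scale and 0.02 after median-of-ratios scaling, the cDC1 changes were -4.48 for Apol7c, -2.07 for Clec2i and -1.09 for Cacna1e. The pDC changes relative to the pDC median of -0.05 were -2.31 for Apol7c, -0.59 for Cacna1e and -0.49 for Clec2i, so that Clec2i then fell short of the limit of 0.5 there. The cDC2 changes relative to the median of -0.03 were -1.53, -1.64 and -1.07 for Apol7c, Cacna1e and Clec2i. Summed markers of other cells also separated the genotypes. In pDCs the 6 listed T cell genes summed to 9.65 to 11.2 TPM in WT and 17.3 to 22.4 TPM in cKO libraries, the 10 monocyte and macrophage genes to 4855 to 5529 and 5750 to 5857 TPM, and the 9 cDC2 markers to 2268 to 2346 and 1878 to 2010 TPM. In cDC1s the 7 neutrophil genes summed to 1.46 to 16.5 TPM in WT and 21.0 to 39.5 TPM in cKO libraries, the 8 pDC markers to 153 to 170 and 254 to 258 TPM, the 6 listed B cell genes to 25.4 to 34.2 and 18.9 to 20.9 TPM, the T cell genes to 10.1 to 10.2 and 8.88 to 9.60 TPM, and the 4 platelet genes to 3.56 to 6.82 and 3.08 to 3.23 TPM. In cDC2s the pDC markers summed to 130 to 165 TPM in WT and 196 to 230 TPM in cKO libraries. Of these genes Ly6g was at 0 in each WT cDC library and Elane in each cKO cDC1 library. The markers of each sorted subset itself also separated by genotype, rising with cKO in pDCs and falling with it in cDC1s and cDC2s, and the part of any of these lists in the values of the 3 genes was not tested.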

How the data were processed

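Per the study's methods, spleen cells were depleted of non-DC lineages with antibodies and sorted, and single-end 50-base BGISEQ-500 reads were filtered with SOAPnuke, mapped with Bowtie2 2.2.5 and quantified by the authors with RSEM 1.2.12, without a stated transcript release. TPM was deposited by the authors for 17128 genes in pDCs and 17721 in cDCs. FPKM values, also deposited by the authors, served as an alternative and for the depth estimate. Groups and replicate numbers came from the sample titles. Gene IDs were matched to RefSeq on GRCm38.p6, which named 17079 and 17667 of them.

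The values are not counts, so limma 3.58.1 (R 4.3.3) replaced the authors' DESeq2 at the thresholds of the study. Genes averaging 1 TPM or more in a table were fitted as log2(TPM + 1), which understates changes of low genes, with an eBayes trend and two-sided tests. The 10 cDC libraries were fitted together as 4 group means and the 6 pDC libraries apart. The fit was tested on simulated data. The study calls the replicates biological; each was a pool of mice, so p values measure the spread between pools. Replicate numbers paired the pDC libraries by the data (correlations of deviations 0.206, 0.31 and 0.392) and not the cDC libraries (-0.531 to 0.253).

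Reads were taken as FPKM times depth times transcript length. Sequences came from RefSeq and GENCODE on GRCm38; all of the 6 genes examined matched, and shared windows and alignments were computed with biopython 1.88. Tables were handled in pandas 2.3.3 and numpy 2.4.6 under Python 3.11.15, and plots drawn with matplotlib 3.10.9. The genes and gene lists were chosen with earlier results of these data known. The text names the 3 genes, called genes of the lists and all tested genes of their families, called genes within 500 kb, the 5 genes most like each and the 5 next to the rule. Alternatives changed the unit, scaling, pseudocount, filter, variance trend, block and libraries.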

Additional observations from a re-analysis of the deposited data

Results flagged for a closer look

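Limma's test of the difference in genotype effect, the cDC1 change minus the cDC2 change (log2), called 292 of 11411 genes, a share of 2.56%. A call required an adjusted p of at most 0.01 and a size of at least 0.5. Of the 3 genes and the lists other than cell type markers, 9 genes were called for this difference. For Apol7c it was -2.75, a value made of the differences that chose the gene and so a description; it passed in 3 of 10 fits with 1 library left out and not with the replicate block (adjusted p 0.0139). For the paralogs, which share read sequences with Apol7c and so need not be separate values, it was -2.67 for Apol7b, passing in 7 of 10 such fits, and -2.63 for Apol7a and -1.73 for Apol7e, each passing in 1 of 10. Neither Apol7a nor Apol7e passed with a pseudocount of 0.1, without the filter or with the replicate block. Among mature DC genes the difference was -4.05 for Il12b, -3.45 for Ccl22 and -1.75 for Cd274, and each passed in 10 of 10. It was 2.48 for Ryr3, which fell in cDC2s, was at most 0.115 TPM on average in the cDC1 groups and passed in 10 of 10. It was 1.30 for Klrb1f, which rose in cDC1s, and passed in 2 of 10. The Klrb1f difference did not pass with FPKM, median-of-ratios scaling, quantile normalization, no filter or the replicate block (adjusted p by limma 0.0128 to 0.0171). No group held the 4 libraries that a test for single outlying values needs.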

How the results depend on the processing

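Under the alternatives other than leaving out a library, the genes called lower in all 3 subsets numbered 0 without the filter on low values and 1 without the variance trend, and 2 to 4 otherwise. Called genes in pDCs numbered 24 without the filter, 56 without the trend and 335 with the replicate block, in cDC2s 444 with the 2 groups alone, and for the difference between cDC subsets 145 with the replicate block; exchanging the numbers of the cKO cDC1 libraries in the block, an alternative added after the data were seen, gave 509 in cDC2s, 138 for that difference and 2156 in cDC1s. Without the filter these values kept their size and lost the call: Apol7c at -2.36 in pDCs, -1.56 in cDC2s and -2.75 between cDC subsets, Cacna1e at -0.63 in pDCs and -0.92 in cDC1s, and Clec2i at -0.54 in pDCs and -1.09 in cDC2s; more genes were tested, which raises adjusted p. Calls were also lost for Cacna1e in pDCs after median-of-ratios scaling (-0.60) and without the trend (-0.63), for Cacna1e in cDC1s with a pseudocount of 0.1 (-0.94), for Clec2i in pDCs with FPKM (-0.50), quantile normalization (-0.52) or no trend (-0.54), for Clec2i in cDC2s without the trend (-1.09), and for Apol7c in cDC2s with the 2 groups alone (-1.56). With the replicate block Clec2i in cDC2s (-1.09, adjusted p 0.0187) and the Apol7c difference of genotype effects between cDC subsets (-2.75) no longer passed; the pairing changed no other call of the 3 genes, and cDC libraries share only a number. Leaving out 1 library at a time gave 0 to 2 genes lower in all 3 subsets, 12 to 97 called genes in pDCs, 800 to 2888 in cDC1s, 316 to 907 in cDC2s, 1997 to 3453 between cKO cDC subsets and 77 to 282 for the difference of the genotype effects. The log2 values then ranged for Apol7c from -2.65 to -2.14 in pDCs, -1.80 to -1.28 in cDC2s and -3.02 to -2.49 for that difference, for Cacna1e from -0.71 to -0.57 in pDCs and -0.98 to -0.85 in cDC1s, and for Clec2i from -0.61 to -0.51 in pDCs, -1.16 to -0.98 in cDC2s and -1.33 to -0.28 for the difference. Apol7c in cKO cDC2s minus cKO cDC1s ranged from -0.076 to 0.41 and changed sign without cKO cDC1 library 1 (-0.045) or cKO cDC2 library 3 (-0.076). The calls of the 3 genes between WT cDC subsets were kept in all alternatives. By median-of-ratios scaling the calls between WT cDC subsets were 1718 higher and 1819 lower in cDC2s, against 2371 and 1241, and those for the difference of genotype effects 100 and 281, against 138 and 154. Among 71 other named genes, 412 of 6524 alternative values changed side of the threshold and 0 called values changed sign.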
